A study of Rattus norvegicus with 19 samples.

Results

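Pxmp4 and 29 other genes of the peroxisome were followed in the hypothalamus of the spontaneously hypertensive rat (SHR) and of the Wistar Kyoto rat (WKY). Pxmp4 encodes a membrane protein of the peroxisome and was chosen because its signal differed between the strains. The other genes were chosen by name, as proteins that build the peroxisome or work inside it, to ask whether the strain difference of Pxmp4 extends to the rest of the organelle. Members were found by symbol in the platform annotation of the arrays, and probe sets counted where that annotation gave 1 symbol. Of the 30 genes, 29 had such a probe set, among 14217 genes in all. The exception was Acaa1a, a thiolase, whose probe set carries a further symbol and was not used. The 29 genes had 37 probe sets, 8 genes had 2 of them, and each gene is given by its brightest probe set on average unless stated. SHR was higher than WKY in Pxmp4 by more than 2 log2 units in both nuclei, a size that rests on dim WKY values. Of the other members 0 passed the test between strains in the PVN and 1 of 22 in the SON (4.55%, where 3.62% of all probe sets passed). That gene was Crat, carnitine acetyltransferase, lower in the SON of SHR, and its call was lost without array 2 or array 4 of the SHR SON.

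The peroxisome is a small organelle with a single membrane that shortens very long and branched fatty acids, breaks down hydrogen peroxide and carries out the early steps of ether lipid (plasmalogen) synthesis. Its membrane proteins are inserted with the help of Pex3, Pex16 and Pex19. Enzymes of its matrix are made in the cytosol and imported by the receptors Pex5 and Pex7 through a docking and ubiquitination machinery that sits in the membrane. In brain it is known above all for the lipids of myelin, and inherited loss of its import proteins or of its fatty acid transporters causes neurological disease in humans.

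RNA came from the paraventricular nucleus (PVN) and the supraoptic nucleus (SON), the hypothalamic nuclei whose magnocellular neurones make vasopressin and oxytocin. The rats were 12 weeks old by the labels, inbred and, by the study's methods, male, and none was treated. There were 5 arrays for the PVN of SHR, 5 for the PVN of WKY, 4 for the SON of SHR and 5 for the SON of WKY. The study describes pooled nuclei, read here as 1 pool per array, so p-values measure the spread between pools. SHR and WKY are separate inbred strains that differ at many loci, so blood pressure and other strain differences cannot be told apart in this design.

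The deposited values were Affymetrix signals, 1 per probe set and array. Every array was scaled to the same median, signals under 3.77 were raised to that floor (1.91 on the log2 scale), and log2 values were compared with limma, a linear model that shares its estimate of spread over all probe sets. Dim probe sets were left out, and one was tested only if its mean in some group was no lower than the mid-point (median) of the means of all probe sets. A difference is in log2 units, and it passed the test where the p-value adjusted over all tested probe sets by the Benjamini-Hochberg method was under 0.05. Between 8.33% and 10.6% of probe sets lay at the floor in an array, and arrays correlated with the others of their group at a mean r of 0.962 to 0.983, lowest in array 1 of the SHR PVN. Avp and Oxt, which define magnocellular neurones, had mean levels of 12.0 to 12.4 and 11.9 to 12.2 in the 4 groups. Crh, Trh and Sst, made by parvocellular neurones, were lower in the SON than in the PVN of both strains by 3.60 to 4.79. Of the developmental factors of these neurones, Pou3f2 lay at the floor in all 19 arrays and Otp averaged 2.30 to 2.58, while Sim1 averaged 6.19 to 7.51.

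Pxmp4 is a small peroxisomal membrane protein with several membrane spans whose transport role is not settled. Its promoter and that of Crat are shown because these are the 2 members with a strain difference. They are the 250 bases before the annotated start in RefSeq's GRCr8 assembly of the BN rat, not of SHR or WKY, and both lie on the minus strand of chromosome 3, at chr3:163570830-163571079 for Pxmp4 and chr3:34087100-34087349 for Crat. Capitals mark the CCAAT box, spelt CCAAT or, on the other strand, ATTGG.
Pxmp4: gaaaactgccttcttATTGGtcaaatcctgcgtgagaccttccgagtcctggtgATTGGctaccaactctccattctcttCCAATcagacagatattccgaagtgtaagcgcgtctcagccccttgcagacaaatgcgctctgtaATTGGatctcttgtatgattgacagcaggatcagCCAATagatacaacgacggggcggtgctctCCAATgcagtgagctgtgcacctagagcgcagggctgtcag
Crat: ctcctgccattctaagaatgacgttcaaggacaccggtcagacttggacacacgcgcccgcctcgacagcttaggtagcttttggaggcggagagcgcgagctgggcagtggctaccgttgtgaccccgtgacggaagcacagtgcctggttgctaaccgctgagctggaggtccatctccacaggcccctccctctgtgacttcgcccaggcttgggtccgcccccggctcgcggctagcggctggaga

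Over the window of 300 bases, which runs 50 bases past the start, Pxmp4 had 6 CCAAT matches on either strand and Crat had 0. Of 33361 rat promoters of that length, 37.5% held at least 1 match and 0.042% held 6 or more. This motif was chosen after the sequence was seen. Of the 28 members with a promoter in the table, 14 (50%) held CCAAT and 23 (82.1%) held GGGCGG, a GC box, against 36.8% and 55.7% of the 13240 promoters of genes on the array. AGGTCA, the core motif that PPAR and other nuclear receptors read, was in 4 of the 28 (14.3%), against 13.2% of the promoters of array genes, and its direct repeat with 1 base between was in 0 of the 28, against 0.0302%. TATAAA was in 1 of the 28 (3.57%), against 8.44%. Both strands were searched for each motif, and a match is a description of letters, not of binding.

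In the PVN, the first Pxmp4 probe set read 7.15, 6.71, 6.71, 6.69 and 6.74 in the SHR arrays, against 4.87, 4.72, 4.41, 4.52 and 4.07 in the WKY arrays. In the SON it read 7.21, 6.95, 7.25 and 6.94 in SHR, against 4.29, 4.83, 5.06, 4.74 and 4.59 in WKY. Each SHR array lay above each WKY array in both nuclei, with a gap between the strains wider than the whole range of either strain. Means in the PVN were 6.80 ± 0.20 for SHR and 4.52 ± 0.31 for WKY (SD, n = 5 each). Those of the SON were 7.09 ± 0.17 for the 4 SHR arrays and 4.70 ± 0.29 for the 5 WKY arrays (SD). The strain difference was 2.28 in the PVN, which is 4.86-fold, and 2.38 in the SON, which is 5.22-fold. Since this difference chose the gene, it is given with no test. The WKY means lay under the filter level (5.32 over all arrays), so the probe set met the filter only through SHR and the fold is uncertain. With log2(value + 16) in place of the floor the difference was 1.71 in the PVN and 1.85 in the SON. RNA was taken from whole nuclei, so fewer cells of a type and less RNA per cell cannot be told apart in this or any other value here.

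The second Pxmp4 probe set went the same way. It read 5.96, 6.02, 5.82, 5.87 and 5.89 in the SHR PVN, against 4.98, 2.15, 2.65, 3.68 and 1.91 in the WKY PVN, where 1 array lay at the floor. The SHR arrays lay between 5.82 and 6.02 and the WKY arrays were widely spread, so that the size of the difference, 2.84, is less certain than that of the first probe set. In the SON it read 5.69, 6.09, 5.26 and 6.07 in SHR, against 3.22, 4.57, 3.03, 3.86 and 3.40 in WKY, a difference of 2.16. Its WKY means, 3.07 in the PVN and 3.62 in the SON, lay under the filter level too. With log2(value + 16) its differences were 1.55 and 1.31. Over the 19 arrays the 2 probe sets correlated at r = 0.89, and at r = 0.36 once each group's mean was removed, as a description over arrays that share strain and nucleus.

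**Figure D1:**
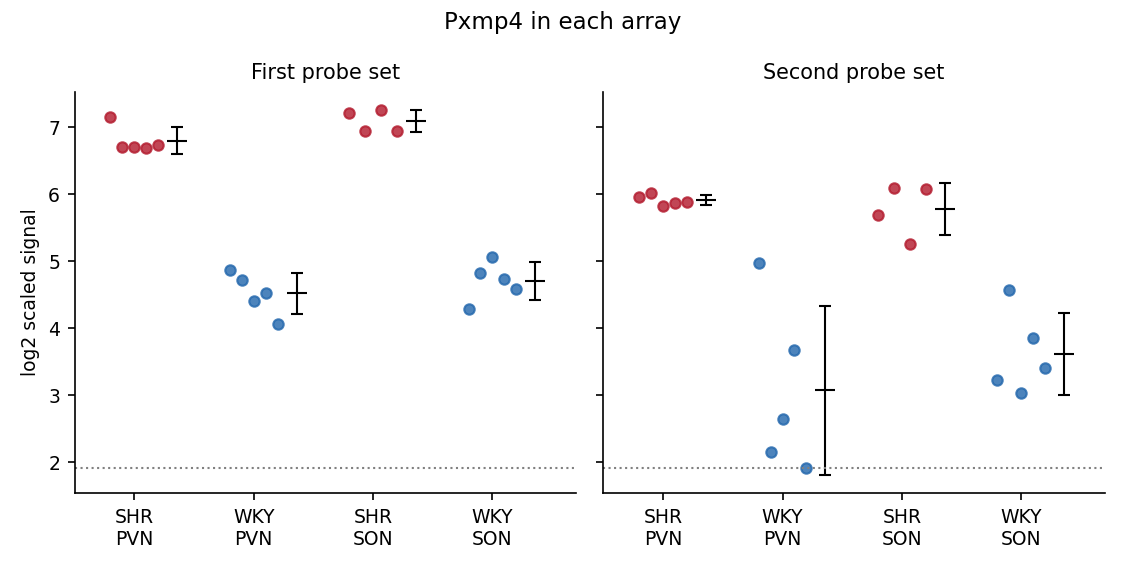
Log2 scaled signal of both Pxmp4 probe sets in each of the 19 arrays, by strain and nucleus. Points are arrays, bars beside them give the mean and SD, and the dotted line is the floor of 1.91. SHR arrays lie at 6.69 to 7.25 in the first probe set and at 5.26 to 6.09 in the second, above each WKY array of their nucleus.

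Between nuclei Pxmp4 moved little. The first probe set was higher in the SON than in the PVN by 0.29 in SHR (95% interval -0.05 to 0.62, adjusted p = 0.189) and by 0.18 in WKY (-0.13 to 0.50, adjusted p = 0.394), neither past the test. The difference of its strain difference between the nuclei, SON minus PVN, was 0.10 in the first probe set and -0.68 in the second, where the spread of the WKY PVN arrays enters.

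The genes that lie beside Pxmp4 on chromosome 3 showed no difference of its size. In the order of the reference annotation, the nearest 5 genes with a tested probe set on 1 side were E2f1, Necab3, Cbfa2t2, Bpifa5 and Bpifa1, and on the other Zfp341, Raly, Eif2s2, Ahcy and Dynlrb1. None of the 10 passed between strains in the PVN, where 2.36% of all probe sets passed. None of the 8 tested passed in the SON (3.62% of all probe sets), where E2f1 and Bpifa1 were too dim. Their differences ran between -0.18 for Raly, an RNA-binding protein, and 0.41 for Bpifa5, both in the PVN (adjusted p = 0.685 and 0.388). The SHR and WKY arrays overlapped in all of them, in both nuclei. The genes whose probe set followed the first of Pxmp4 most closely over the 19 arrays were Agtrap, Fry and RT1-CE16 (Pearson r = 0.95 each) and Actr8 and Dlgap4 (r = 0.94 each). Of these, Dlgap4, a scaffold protein of synapses, is also on chromosome 3. With group means removed their r with Pxmp4 was 0.04 to 0.26, so the likeness lay between the groups. Agtrap, which binds the angiotensin II receptor, averaged 5.93 in SHR and 3.25 in WKY in the PVN.

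The other members are 28 measured genes. In the PVN, 23 of them were tested and 0 passed in either direction, where 2.36% of all 16104 probe sets tested passed (1.14% higher and 1.22% lower in SHR). At an unadjusted p under 0.05 there was 1 higher, Pex7, and 1 lower, Crat, where 13.5% of all probe sets reached that level. Their median difference was -0.05, beside -0.04 for all probe sets tested, and 16 of the 23 were below 0. The differences ran between -0.39 and 0.32, and the 95% intervals between -0.65 and 0.54, so that no interval reached the size of the Pxmp4 difference. In the SON, 22 were tested, 0 passed as higher and 1, Crat, as lower (4.55%), where 3.62% of 16190 probe sets passed (1.29% higher and 2.33% lower in SHR). Crat, Abcd2 and Pex14 were lower at an unadjusted p under 0.05, a level that 19.3% of all probe sets reached. The median difference was -0.02, beside -0.04 for all probe sets, the range was -0.49 to 0.21 and the intervals ran between -0.71 and 0.69. The strain difference did not differ between nuclei past the test for any of 23 members (0 passed, where 0.0819% of 17095 probe sets did, 0.0117% higher and 0.0702% lower), with 1 at an unadjusted p under 0.05, Abcd2, where 6.85% of all probe sets reached that level.

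**Figure D2:**
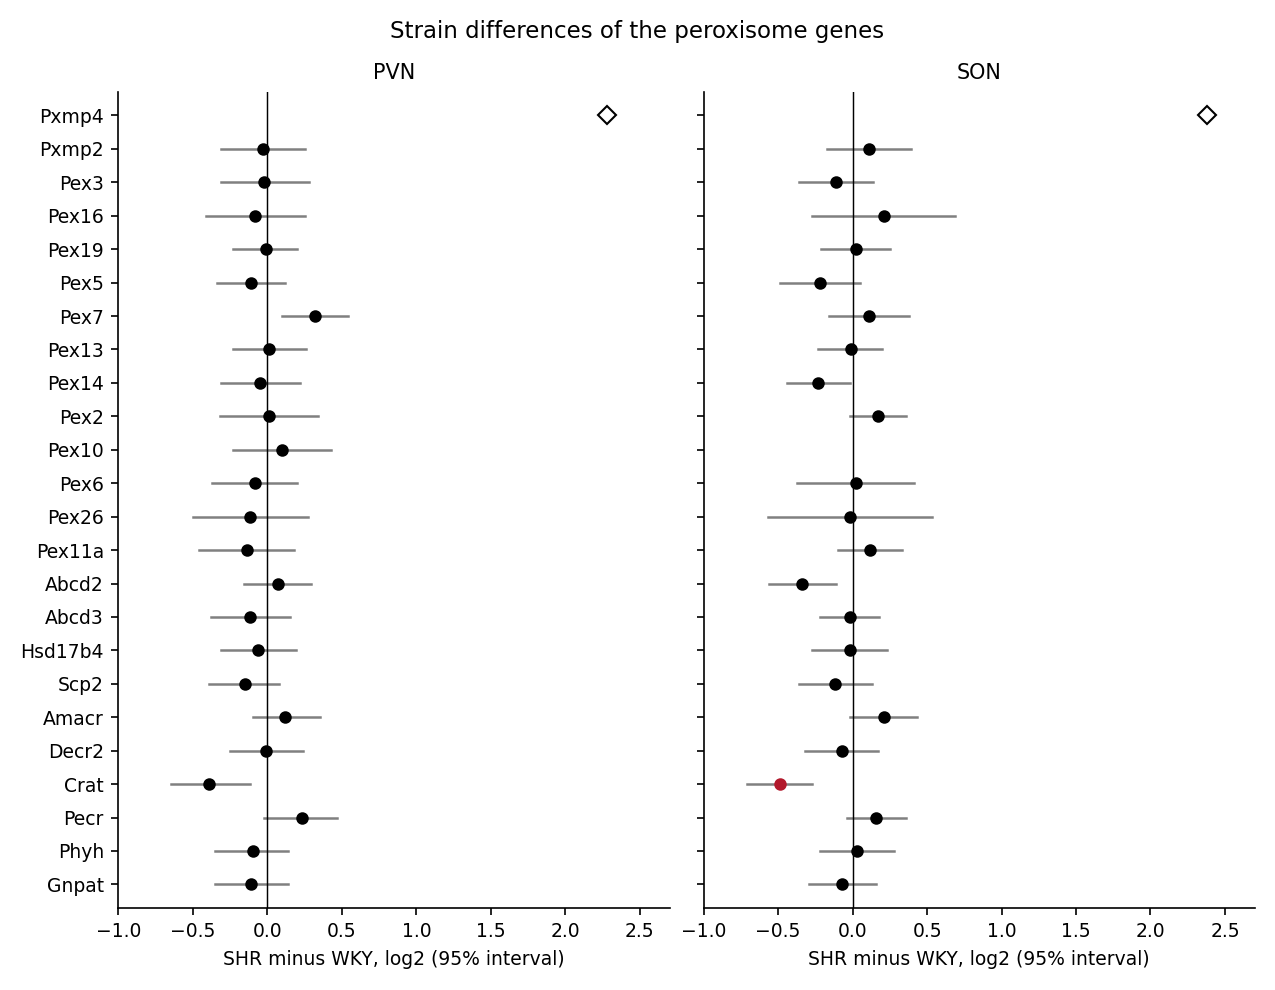
Strain difference, SHR minus WKY in log2 units, of each tested member in the PVN and in the SON. Dots are estimates with 95% intervals, the red dot passed the test, and the open diamond is the first Pxmp4 probe set, shown with no interval since its difference chose it. All members but Pxmp4 lie between -0.49 and 0.32, with Crat the lowest in both nuclei.

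Across 22 members tested in both nuclei, 4 were above 0 in both, 10 were below 0 in both and 8 had opposite signs. The share with 1 sign was 63.6%, beside 63.7% of the 15200 probe sets tested in both. These comparisons use separate arrays, though both nuclei may come from the same rats. The members behaved in this respect as the other probe sets did.

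By role, the other membrane protein, Pxmp2, which forms a channel for small solutes, differed between strains by -0.03 in the PVN (95% interval -0.31 to 0.25) and 0.11 in the SON (-0.17 to 0.39). Its arrays overlapped between strains in both nuclei. The 3 proteins that place others in the peroxisome membrane were close to 0 in the PVN, Pex3 at -0.02, Pex16 at -0.08 and Pex19 at -0.01. In the SON they stood at -0.11, 0.21 and 0.02. The value for Pex16 was the largest positive difference in the SON among the tested members other than Pxmp4, with an interval of -0.27 to 0.69 (adjusted p = 0.648). Pex16 read 6.58, 6.83, 6.74 and 6.86 in the SHR SON, against 6.12, 7.44, 6.53, 6.28 and 6.33 in the WKY SON. The strains overlap there, since array 2 of WKY is the highest of all. Without that array the difference was 0.43, without array 1 of WKY it was 0.10, and the second Pex16 probe set stood on the other side of 0, at -0.19.

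Matrix import had 8 members: the receptors Pex5 and Pex7, the docking proteins Pex13 and Pex14, the ubiquitin ligases Pex2 and Pex10, and Pex6 with its anchor Pex26, which extract used receptors. In the PVN their differences ran between -0.12 and 0.32 with a median of -0.02. Pex7, the receptor for the second class of import signal, read 6.55, 6.49, 6.48, 6.27 and 6.22 in the SHR PVN, against 6.10, 6.12, 6.16, 6.10 and 5.95 in the WKY PVN. Each SHR array lay above each WKY array, by a difference of 0.32 (95% interval 0.10 to 0.54) that did not pass (adjusted p = 0.157). In the SON the difference of Pex7 was 0.11 (-0.16 to 0.38) and the strains overlapped. Of the 8, 7 were tested in the SON, between -0.23 for Pex14 (adjusted p = 0.203) and 0.17 for Pex2 (adjusted p = 0.303), and Pex10 was too dim there. Pex5, the main import receptor, gave -0.11 in the PVN and -0.22 in the SON by its first probe set. Its second gave -0.33 in the PVN and 0.33 in the SON, so its probe sets disagree in the SON.

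Pex11a, which elongates peroxisomes before they divide, differed by -0.14 in the PVN and 0.12 in the SON. The fatty acid transporters are Abcd2, which carries very long chain fatty acids, and Abcd3, which carries branched ones and bile acid precursors. Abcd2 read 6.17, 6.50, 6.12 and 6.36 in the SHR SON, against 6.66, 6.64, 6.68, 6.61 and 6.53 in the WKY SON. Each SHR array lay below each WKY array there, by -0.34 (95% interval -0.56 to -0.11), which did not pass (adjusted p = 0.0963). In the PVN the Abcd2 arrays overlapped, at a difference of 0.07 (-0.16 to 0.29), and the difference between nuclei was -0.40 (adjusted p = 0.538). Abcd3 stood at -0.12 in the PVN and -0.02 in the SON.

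Of the 8 measured members that work in fatty acid beta-oxidation or handle its shortened products, 5 were tested in each nucleus. Hsd17b4, the multifunctional protein of branched and very long chains, stood at -0.06 in the PVN and -0.02 in the SON. Decr2, a dienoyl-CoA reductase, stood at -0.01 and -0.07. Scp2, which holds the thiolase for branched chains and a sterol carrier, had the second lowest difference of the PVN. It read 10.17, 10.07, 9.83, 9.78 and 9.70 in the SHR PVN, against 10.04, 10.06, 10.14, 9.99 and 10.08 in the WKY PVN. The strains overlap, with array 1 of SHR above and array 2 among the WKY values, and the difference was -0.15 (95% interval -0.39 to 0.08, adjusted p = 0.618). Amacr, the racemase that turns branched acyl-CoAs into the form that can be oxidised, read 6.68, 6.89, 6.59 and 6.93 in the SHR SON, against 6.63, 6.58, 6.66, 6.53 and 6.43 in the WKY SON. Its difference was 0.21 in the SON (-0.02 to 0.43, adjusted p = 0.301) and 0.12 in the PVN (adjusted p = 0.682), with overlap in both.

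Crat moves acetyl groups between CoA and carnitine and is found in peroxisomes and mitochondria. In the SON it read 7.36, 7.28, 7.46 and 7.23 in SHR, against 8.05, 7.78, 7.78, 7.80 and 7.71 in WKY. Each SHR array lay below each WKY array, and the WKY arrays were close together but for the highest, array 1. Crat fell in the SON of SHR by 0.49 on the log2 scale (95% interval -0.71 to -0.27), that is 0.711 times the WKY level (adjusted p = 0.0207). Without array 2 of the SHR SON the adjusted p was 0.0659, and without array 4 it was 0.0577, at differences of -0.48 and -0.46. In the PVN, Crat read 7.45, 6.83, 7.24, 6.87 and 6.98 in SHR, against 7.41, 7.43, 7.56, 7.42 and 7.49 in WKY. SHR array 1 lay among the WKY values and the other 4 lay below them all. The PVN difference was -0.39 (-0.65 to -0.12) and did not pass (adjusted p = 0.147), and without SHR array 1 it was -0.48 (adjusted p = 0.0197). The Crat strain difference was lower in the SON than in the PVN by -0.10 (-0.44 to 0.23, adjusted p = 0.935).

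Among markers of cell types, Lum and Dcn of meninges and fibroblasts were higher in the SON of SHR than of WKY, by 1.00 and 1.04 (adjusted p = 0.0291 and 0.0482), 2 of the 10 genes of that list. The summed signal of the 10 genes ran from 3046 to 7548 in the SHR SON and from 2391 to 3802 in the WKY SON. Sim1 was lower in SHR in both nuclei, by -0.94 in the PVN and -0.97 in the SON (adjusted p = 2.74e-05 and 0.00969), 1 of 11 neurone markers tested in the PVN and of 9 in the SON. The share of all probe sets that passed between strains was 2.36% in the PVN and 3.62% in the SON. The summed neurone signal ran from 13998 to 16373 in the SHR SON and from 13953 to 22486 in the WKY SON. In the PVN that sum ran from 14070 to 17501 in SHR and from 18093 to 20539 in WKY, with no overlap. Such a sum follows its brightest genes, among them Avp and Oxt, which did not pass there (-0.29 and -0.25, adjusted p = 0.268 and 0.439). Rbfox3, Gal and Syt1 were higher in the SHR PVN, by 0.34, 0.25 and 0.13, none past the test. The other tested neurone markers were below 0, so the sum does not stand for the whole list. No tested gene of the astrocyte, oligodendrocyte, microglia or endothelial lists passed between strains in the SON. The part of these cell types in the Crat difference was not tested.

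Pecr, a reductase of the peroxisome that acts in fatty acid chain elongation, had the second largest positive difference of the PVN. It read 8.42, 8.09, 7.95, 7.95 and 8.09 in the SHR PVN, against 7.81, 7.76, 8.07, 7.85 and 7.87 in the WKY PVN. Array 3 of WKY lay within the SHR values, and the difference of 0.23 (95% interval -0.02 to 0.47) did not pass (adjusted p = 0.414). In the SON it was 0.16 (-0.04 to 0.36, adjusted p = 0.356), where the SHR and WKY arrays did not overlap. Phyh, which starts the alpha-oxidation of phytanic acid, stood at -0.10 in the PVN and 0.03 in the SON. Gnpat, the acyltransferase that begins ether lipid synthesis, stood at -0.11 and -0.07, and its second probe set at -0.12 and -0.05.

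The 5 other measured members were too dim to be tested in either nucleus: Acox2 and Acox3, oxidases of branched chains, Ehhadh, a bifunctional beta-oxidation enzyme, Agps, the second enzyme of ether lipid synthesis, and Far1, which makes its fatty alcohols. Agps lay at the floor in 14 of the 19 arrays. Without the filter none of the 5 passed, and Acox2, Ehhadh and Agps differed between strains by -0.35 to 0.43, while Acox3 stood at 0.17 in the PVN and -1.10 in the SON (adjusted p = 0.945 and 0.515). Far1 read 2.35, 3.63, 2.80, 1.91 and 2.90 in the SHR PVN, against 4.15, 4.35, 2.42, 3.02 and 4.59 in the WKY PVN. SON arrays of Far1 read 4.20, 2.24, 4.94 and 2.90 in SHR, against 5.24, 5.04, 4.29, 4.21 and 4.13 in WKY. The strains overlapped in both nuclei, with differences of -0.99 in the PVN (adjusted p = 0.496 without the filter) and -1.01 in the SON (adjusted p = 0.509 without the filter), and SEs of 0.48 and 0.56. Differences of that size could not be resolved for these genes on these arrays.

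Other genes of the peroxisome were read from lists made with earlier results of these data known. Of 11 measured genes of biogenesis and division outside the member list, 10 were tested in the PVN and 9 in the SON, and none passed between strains in either direction. Pex11g had the largest difference among them, 0.56 in the PVN (adjusted p = 0.120), and was not tested in the SON. The lowest there was Fis1 at -0.21 (adjusted p = 0.508), and in the SON the differences ran from -0.20 for Usp30 to 0.04 for Acbd5 (adjusted p = 0.341 and 0.895). Of 32 measured enzymes and transporters, 26 were tested in each nucleus. In each nucleus 1 passed as higher in SHR, Ephx2, which met the filter only through SHR, and 1 as lower, Crot. Of all probe sets tested, 2.36% passed in the PVN and 3.62% in the SON. The median of that list was -0.06 in the PVN and -0.04 in the SON. Catalase (Cat), which breaks down hydrogen peroxide, stood at -0.07 and 0.03. Of the regulators, none of the 4 tested passed in either nucleus, with Rxrb at -0.14 and Ppargc1b at 0.15 as the ends of the PVN and Ppargc1a at -0.12 and Ppargc1b at 0.29 as those of the SON. Ppara, the receptor that drives peroxisomal genes in rodent liver, averaged 1.91 to 1.94 in the 4 groups, at or near the floor, and its partner Rxra averaged 2.11 to 2.92. A probe set that reads near the floor does not show that its gene is absent.

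Crot attaches carnitine to the medium chains that peroxisomal beta-oxidation leaves, so that they can go to mitochondria, and is related to Crat. It read 7.44, 7.18, 7.12, 6.79 and 6.96 in the SHR PVN, against 7.78, 7.60, 7.86, 7.71 and 7.65 in the WKY PVN. Its SON arrays read 7.20, 7.10, 7.0 and 7.13 in SHR, against 7.78, 8.01, 7.51, 7.80 and 7.55 in WKY. Each SHR array lay below each WKY array in both nuclei. Crot fell in SHR by 0.63 on the log2 scale in the PVN (95% interval -0.89 to -0.37, adjusted p = 0.00963) and by 0.62 in the SON (-0.88 to -0.37, adjusted p = 0.0126). A second probe set of Crot averaged 4.96 in SHR and 5.52 in WKY in the PVN, and 5.10 in SHR and 5.43 in WKY in the SON. It passed the filter only through WKY and is given with no test, and a further one was too dim in all groups. With the spread taken from each probe set alone, the adjusted p of the first was 0.137 in the PVN and 0.0593 in the SON, and without the filter on dim probe sets it was 0.0517 in the PVN.

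Ephx2 encodes the soluble epoxide hydrolase, an enzyme of cytosol and peroxisomes that breaks down epoxides of fatty acids. It read 7.26, 6.78, 6.89, 6.48 and 6.69 in the SHR PVN, against 4.71, 4.24, 1.91, 4.27 and 4.54 in the WKY PVN, where array 3 lay at the floor. In the SON it read 7.20, 7.09, 6.90 and 7.13 in SHR, against 4.67, 5.07, 4.07, 4.58 and 4.60 in WKY, again with no overlap. It was higher in SHR by 2.89 in the PVN and by 2.48 in the SON. The probe set passed the filter on dim signals only through SHR, since its WKY means were 3.93 in the PVN and 4.60 in the SON. The size of the difference is therefore uncertain, and no p-value of the main test is given. With log2(value + 16) in place of the floor the difference was 1.96 in the PVN and 1.91 in the SON. Without the filter the adjusted p in the PVN was 0.0391, and with the spread taken from that probe set alone it was 0.16. Ephx2 is on chromosome 15 and Crot on chromosome 4, apart from Pxmp4 and Crat on chromosome 3. Between strains 2.36% of all probe sets passed in the PVN. There Tekt1 and Ak7, 2 of 6 ependyma genes, were higher in SHR by 0.47 and 0.48 (adjusted p = 0.0442 and 0.0457). The part of that cell type or of neurones in these PVN differences was not tested.

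**Figure D3:**
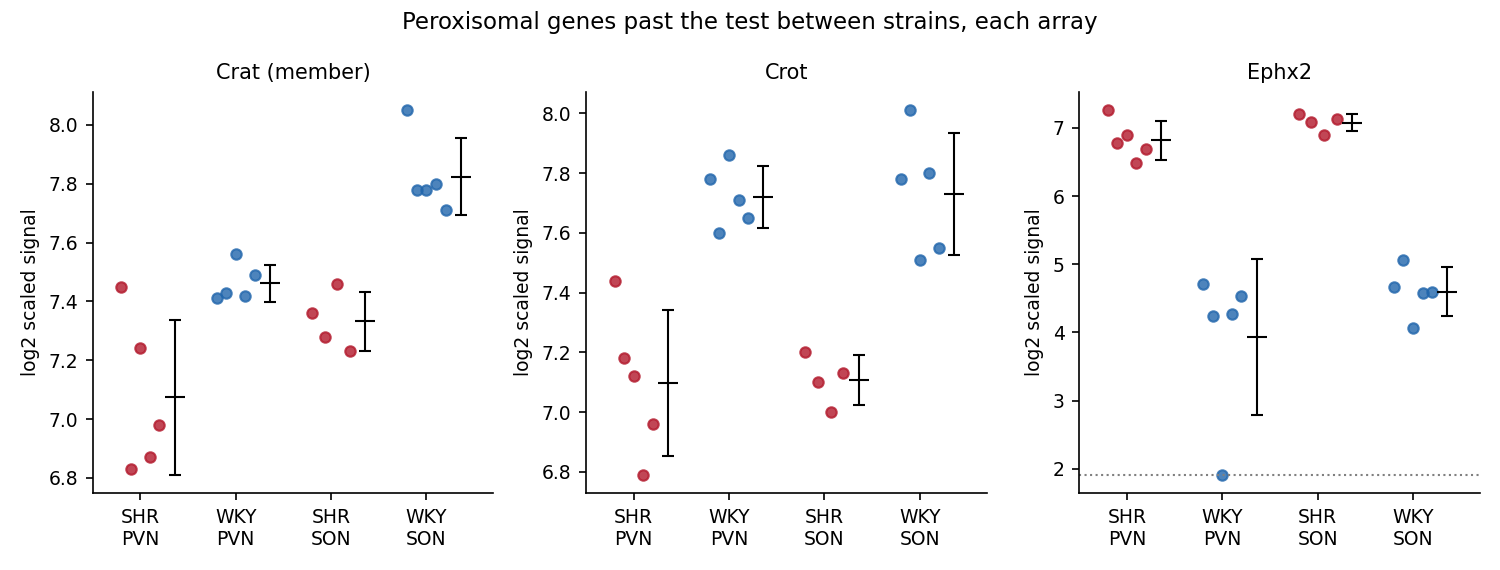
Log2 scaled signal of Crat, Crot and Ephx2 in each of the 19 arrays, by strain and nucleus, each panel with its own axis. Points are arrays, bars give the mean and SD, and the dotted line in the Ephx2 panel is the floor. SHR arrays lie below each WKY array in Crot and above each WKY array in Ephx2, and in Crat only array 1 of the SHR PVN, at 7.45, reaches the WKY values of its nucleus.

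Over the 19 arrays, Pxmp4 correlated with Ephx2 at r = 0.91, with Crot at r = -0.86 and with Crat at r = -0.65. Within groups the same values were 0.12, 0.18 and 0.10. Crat and Crot correlated at r = 0.76 over the 19 arrays and 0.51 within groups. The r of the 23 other tested members with Pxmp4 ran from -0.65 for Crat to 0.59 for Pex7, with a median of -0.03. These are descriptions over arrays that share strain, nucleus and scaling.

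More members passed between nuclei than between strains, as did more probe sets in all. Of 24 members tested in SHR, Pxmp4 included, 4 were higher and 5 lower in the SON than in the PVN (37.5%), where 29.4% of all 17095 probe sets passed (13.7% higher and 15.7% lower). With quantile normalisation the split in SHR was 8 higher and 4 lower, and with the values as deposited 7 higher and 4 lower. In WKY, 2 were higher and 3 lower (20.8%), where 26.9% of probe sets passed (13.2% higher and 13.7% lower). The median difference of the members was 0.12 in SHR and 0.09 in WKY, beside -0.02 and -0.01 for all probe sets. The change of strain difference with nucleus passed for no member, so the counts in SHR and WKY are not shown to differ.

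Pex26, Pecr and Gnpat were lower in the SON of both strains. Pex26 read 5.60, 5.80, 4.88 and 5.82 in the SHR SON, against 7.06, 6.38, 6.76, 5.96 and 6.07 in the SHR PVN. In WKY it read 5.58, 5.78, 5.74, 5.93 and 4.72 in the SON, against 6.37, 6.64, 6.62, 6.76 and 6.41 in the PVN. The nuclei did not overlap in either strain, and Pex26 fell in the SON by 0.92 in SHR (95% interval -1.43 to -0.41, adjusted p = 0.00764) and by 1.01 in WKY (-1.49 to -0.53, adjusted p = 0.00258), both on the log2 scale.

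Pecr read 7.57, 7.41, 7.32 and 7.42 in the SHR SON, against 8.42, 8.09, 7.95, 7.95 and 8.09 in the SHR PVN. In WKY it read 7.31, 7.31, 7.18, 7.29 and 7.24 in the SON, against 7.81, 7.76, 8.07, 7.85 and 7.87 in the PVN. Again no SON array reached a PVN array of its strain. The differences were -0.67 in SHR and -0.61 in WKY (adjusted p = 4.02e-05 and 6.97e-05). Gnpat was lower by -0.38 in SHR (adjusted p = 0.0134) and -0.42 in WKY (adjusted p = 0.00503), and without array 3 of the SHR SON its call in SHR was lost. Its second probe set did not pass in either strain, at -0.30 in SHR and -0.37 in WKY (adjusted p = 0.207 and 0.102).

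Abcd2 was higher in the SON of both strains, by 0.29 in SHR (95% interval 0.09 to 0.50, adjusted p = 0.0306) and by 0.69 in WKY (0.50 to 0.89, adjusted p = 1.04e-05). In WKY it read 6.66, 6.64, 6.68, 6.61 and 6.53 in the SON, against 6.11, 5.81, 5.94, 5.83 and 5.94 in the PVN. The WKY nuclei were apart, while in SHR the lowest SON array, at 6.12, lay below the highest PVN array, at 6.14. In SHR alone Pex11a (0.53), Phyh (0.39) and Pxmp2 (0.40) passed as higher in the SON and Pex14 (-0.44) and Pex5 (-0.32) as lower. In WKY alone Crat passed as higher in the SON, by 0.37 (adjusted p = 0.0174), but not without array 1 of the WKY SON. With each of the 19 arrays left out in turn, Pex11a, Phyh, Pex14, Pex26 and Pecr passed in SHR every time. Pxmp2 passed in 15 of the 19, Abcd2 in 14 and Pex5 in 12. Pxmp2 was lost without array 3 or 4 of the SHR PVN or array 1 or 2 of the SHR SON. Abcd2 was lost without array 2, 3 or 5 of the SHR PVN or array 2 or 4 of the SHR SON. Pex5 was lost without array 1, 2, 3 or 4 of the SHR PVN or array 1, 2 or 3 of the SHR SON. Phyh's second probe set did not pass in SHR, at 0.22 (adjusted p = 0.14). Pex5's second probe set gave -0.10 in SHR (adjusted p = 0.777) and -0.76 in WKY (adjusted p = 0.0107), against -0.32 and -0.21 for the first.

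**Figure D4:**
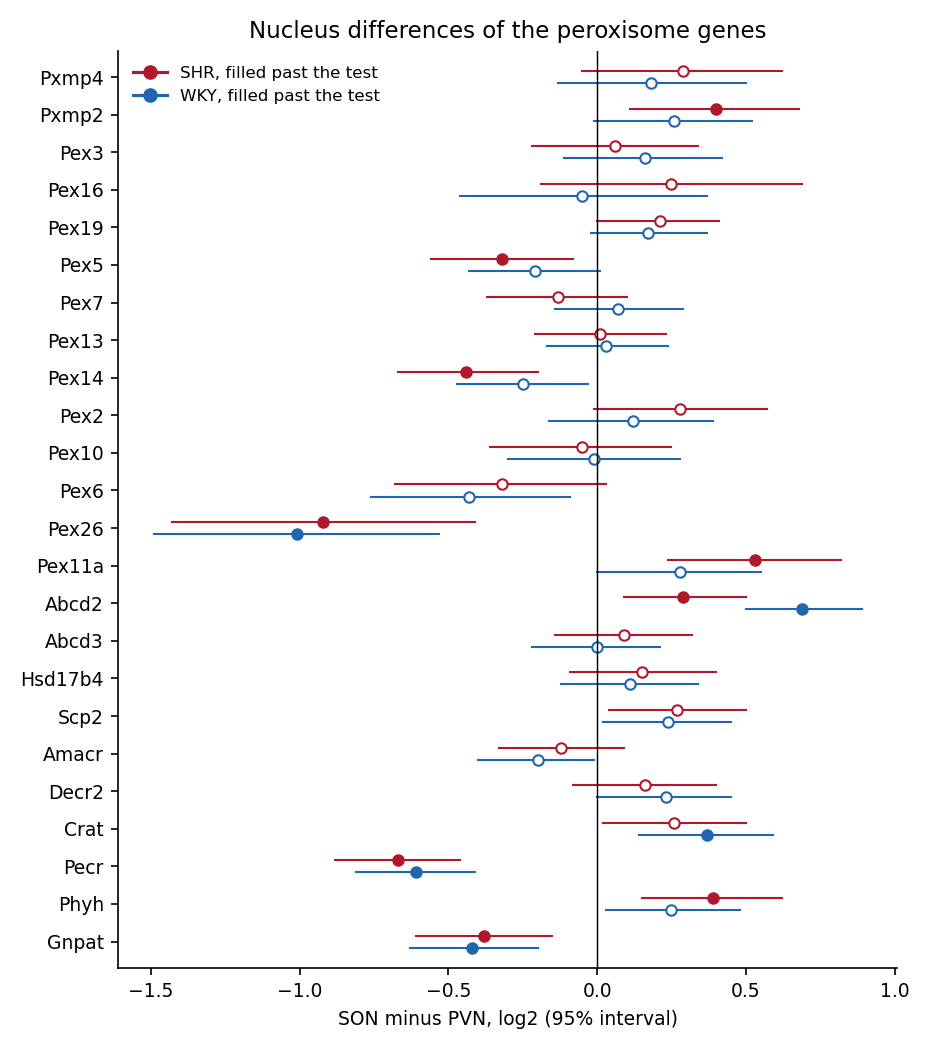
Difference between nuclei, SON minus PVN in log2 units, of the 24 tested members in SHR (red) and WKY (blue), with 95% intervals. Filled circles passed the test. Pex26, Pecr and Gnpat are filled below 0 and Abcd2 above 0 in both strains.

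Cell-type markers differed between the nuclei as well. All 10 genes of meninges and fibroblasts were higher in the SON of both strains, with a summed signal of 3046 to 7548 in the SHR SON against 431 to 467 in the SHR PVN, and of 2391 to 3802 in the WKY SON against 348 to 438 in the WKY PVN. All 6 measured ependyma genes were lower in the SON of both strains, with a summed signal of 233 to 284 in the SHR SON against 2844 to 3554 in the SHR PVN, and of 242 to 275 in the WKY SON against 2337 to 3093 in the WKY PVN. Several genes of these lists met the filter only through the nucleus where they are high, such as Lum and Col1a2 in the SON and Ak7 and Tmem212 in the PVN. For such genes the direction describes levels and is no test. Of 7 astrocyte genes tested, Gfap, Aqp4 and Aldh1l1 were higher in the SON of both strains and none passed as lower, with Slc1a3 at -0.26 in SHR and -0.25 in WKY (adjusted p = 0.0718 and 0.0733). The astrocyte sum was 15595 to 18464 in the SHR SON against 10745 to 15602 in the SHR PVN, and 15938 to 19286 in the WKY SON against 13502 to 15757 in the WKY PVN. Of 10 oligodendrocyte genes, Mbp, Mog, Mobp and Cldn11 were higher in the SON of SHR, and in WKY only Mag passed, as lower. Their summed signal was 5743 to 6611 in the SHR SON against 3835 to 6238 in the SHR PVN, and 5493 to 6660 in the WKY SON against 5135 to 6097 in the WKY PVN. Endothelial genes were higher in the SON in 3 of 8 in SHR and 5 of 8 in WKY, with a sum of 1675 to 2563 in the SHR SON against 1166 to 1510 in the SHR PVN, and of 1747 to 2358 in the WKY SON against 1186 to 1499 in the WKY PVN. Of 2 blood genes tested, both were higher in the SON of SHR and 1, Hbb, in that of WKY. Of 11 neurone markers, 1 was higher and 4 lower in the SON of SHR, and 3 higher and 4 lower in that of WKY. Beside these counts, the share of all probe sets that passed between nuclei was 29.4% in SHR and 26.9% in WKY. The part of these cell types in the nucleus differences of the members was not tested.

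Among the other peroxisomal lists, the biogenesis genes had 1 higher and 2 lower of 10 in the SON of SHR, and none of 10 in WKY. The enzymes and transporters had 4 higher and none lower of 26 in SHR, and 4 higher and 2 lower in WKY. Of all probe sets, 29.4% passed between nuclei in SHR and 26.9% in WKY. Gstk1, Nudt7 and Nudt12, the last 2 being hydrolases of CoA and nucleotides, were higher in the SON of both strains by 0.34 to 0.47. The coactivator Ppargc1a was lower in the SON of both strains, by -0.59 in SHR and -0.50 in WKY (adjusted p = 0.00159 and 0.00384).

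**Figure D5:**
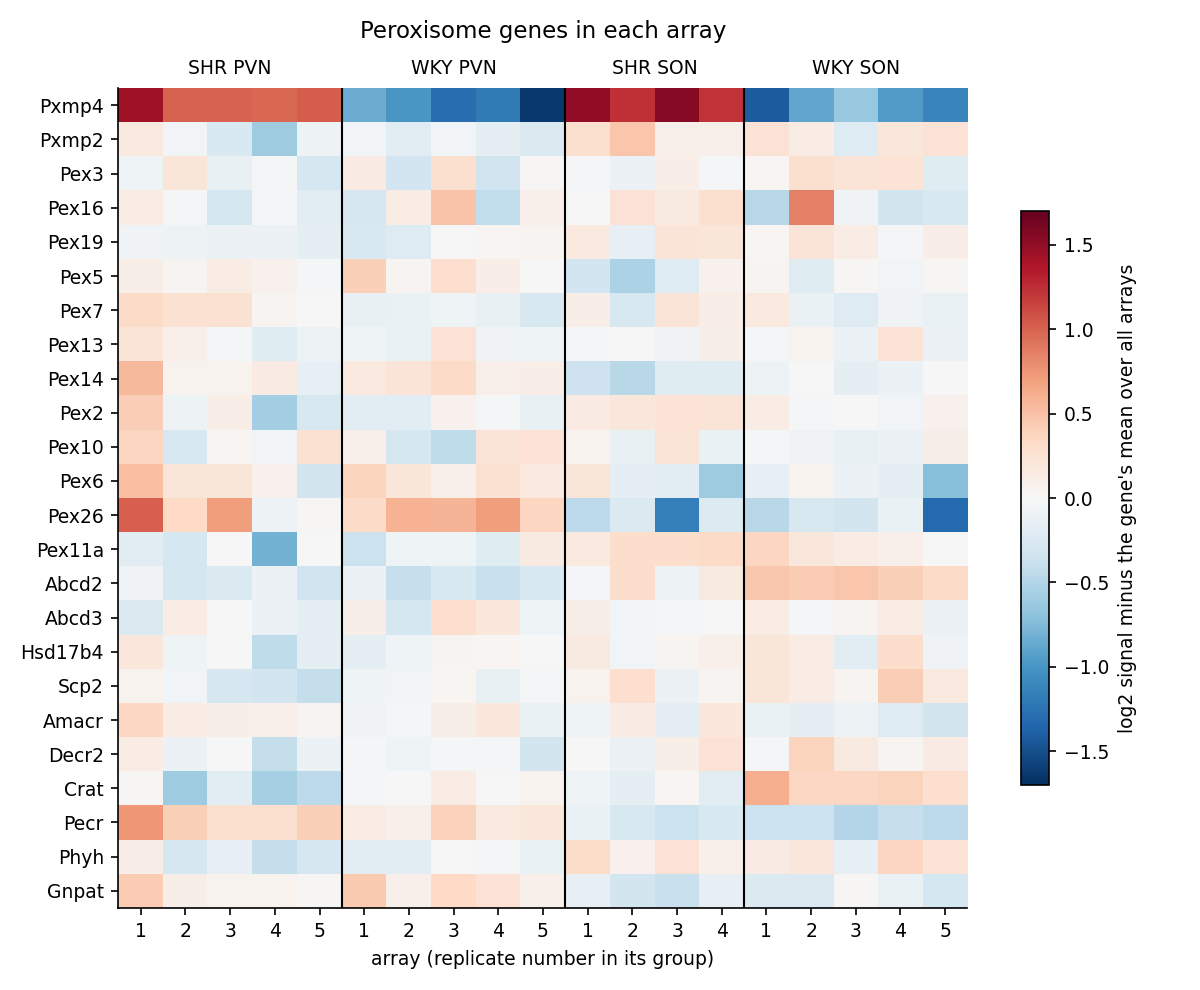
Log2 signal of the 24 members tested over all 19 arrays, each minus the gene's own mean over the arrays, with arrays in columns by group and replicate number. Red is above and blue below the gene's mean. The Pxmp4 row separates SHR from WKY in both nuclei, the Pex26 and Pecr rows separate SON from PVN, and array 1 of the SHR PVN is above the gene's mean in most rows.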

How the data were processed

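The deposited values were signal intensity per probe set on a linear scale, which the authors made from the scanned arrays with Affymetrix MAS 5.0 and scaled to a common trimmed mean (100.02 to 100.03 here). Array medians were 35.9 to 46.5. Array number limits the precision, 4 or 5 per group. Groups were taken from the labels. No pair of arrays held identical values. Of 31099 probe sets, 57 were controls and left out, 20826 had 1 symbol, 436 several and 9780 none. Strain comparisons were fitted within each nucleus, and nucleus comparisons and the interaction over all 19 arrays, with limma 3.58.1 (lmFit, eBayes, two-sided, Benjamini-Hochberg) in R 4.3.3, after median scaling, the floor and log2. Scripts were tested on simulated data. The members and lists were chosen with earlier results of these data known. Values per array were given for Pxmp4, for members that passed between strains, for those with the 2 lowest and 2 highest strain differences in each nucleus, and for genes of the other peroxisomal lists that passed; where a list had none, the difference alone was given for its largest each way. Members that passed between nuclei, Far1, and the 5 genes most like Pxmp4 were described as well. Promoters were those of RefSeq, with 2 members, Pex2 and Pex6, not matched. Alternatives were quantile normalisation, values as deposited, log2(value + 16), no filter, a stricter filter, the methods' t-test, a replicate block, other arrays in the fit, array weights, the mean of a gene's probe sets, and leaving out each array. Only the t-test itself was taken from the study's methods, without its filters.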

Additional observations from a re-analysis of the deposited data

Results flagged for a closer look

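Groups of arrays were examined over the tested members, and since the same arrays enter for each gene, the groups are not independent. Of 100 such groups, 10 had 1 array far from the others of its group. Chance gives about 1 in 20 groups, a guide only for these 10. Array 1 of the SHR PVN was the high one in 3 of them, with Pxmp4 at 7.15 (the other 4 arrays at 6.69 to 6.74), Amacr at 7.10 (6.80 to 6.87) and Gnpat at 6.99 (6.57 to 6.65), and this array also had the lowest mean correlation with its group, 0.962. In the WKY PVN, Pex13 was high in array 3 at 8.24 (7.88 to 7.93) and Decr2 was low in array 5 at 6.2 (6.45 to 6.50). In the SHR SON, Pex19 was low in array 2 at 7.48 (7.79 to 7.84) and Pex11a was low in array 1 at 6.38 (6.51 to 6.53). In the WKY SON, Pxmp2 was low in array 3 at 7.14 (7.48 to 7.61), Pex6 was low in array 5 at 4.93 (5.50 to 5.71) and Crat was high in array 1 at 8.05 (7.71 to 7.80). Without that last array the Crat difference in the SON was -0.43 (adjusted p = 0.0470).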

How the results depend on the processing

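None of the strain differences of the named genes that passed changed sign under any alternative. In the PVN, 2 other members passed in place of 0, Pex7 as higher and Crat as lower, with array weights, quantile normalisation or values as deposited. With arrays left out in turn 0 to 1 passed, the 1 being Crat without array 1 of the SHR PVN. In the SON, 2 passed with array weights, Abcd2 and Crat, and 0 to 1 with arrays left out. The median difference of the members in the SON was 0.05 with quantile normalisation and with values as deposited, against -0.02, and -0.06 to 0.04 with arrays left out. With log2(value + 16) the first Pxmp4 probe set differed by 1.71 in the PVN and 1.85 in the SON, and the second by 1.55 and 1.31. With the floor kept, the mean of both probe sets differed by 2.56 in the PVN. Between nuclei in WKY, 11 members passed with array weights, 10 with quantile normalisation and 9 with values as deposited, against 5, and 4 to 8 with arrays left out, the 8 being without array 1 of the SHR PVN. In SHR 6 to 11 passed with arrays left out, against 9. No member passed in the interaction under any of 28 settings. The methods' t-test takes the spread from each probe set alone and was run on all probe sets tested here. The study ran it on its own filtered lists, so the calls are not those of its procedure. With this t-test Crot lost its call in both nuclei and Ephx2 in the PVN. The cause was not tested for any of these.

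Between strains, same-numbered arrays showed little sign of pairing. Deviations of such SHR and WKY arrays correlated at -0.26 to 0.0984 in the PVN and -0.0147 to 0.122 in the SON. Between nuclei, those of SHR correlated at 0.0349 to 0.192, all positive, and those of WKY at -0.0193 to 0.00114. Both nuclei were dissected from the same brain slices by the study's methods, so their pools may share rats. The main tests between nuclei took the arrays as independent, and shared rats were not tested. With the replicate block 0 members passed between strains in either nucleus, Crat in the SON standing at -0.52 (adjusted p = 0.0633). Between nuclei that block gave 3 higher and 6 lower members in the SON of SHR, and 2 higher and 4 lower in WKY.

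Of all probe sets, 380 passed in the PVN, against 900 with array weights, 608 as deposited, 241 without the filter, 223 with the stricter one, 154 for gene means, 119 by the methods' t-test and 273 to 736 with arrays left out. In the SON 586 passed, against 1573 with array weights, 342 with the block, 334 for gene means, 291 without the filter, 176 by the t-test and 322 to 722 with arrays left out. In the interaction 14 passed, against 48 with array weights, 22 with quantile normalisation, 6 with the stricter filter and 6 to 20 with arrays left out. For gene means between nuclei 2563 passed in SHR and 2332 in WKY, against 5033 and 4598. Dim signal limits Acox2, Acox3, Ehhadh, Agps and Far1.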
